A study of Mus musculus with 6 samples.

Results

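Insulin-like growth factor (IGF) signalling genes were read in the ventricles of mice treated with an antibiotic pair. The set held 10 genes of the 18158 features listed: the ligand genes Igf1 and Igf2, the receptor genes Igf1r, Igf2r and Insr, and the binding protein genes Igfbp3, Igfbp4, Igfbp5, Igfbp6 and Igfbp7. The members were taken from the table by gene symbol, and they had been chosen from these libraries with the contrast of treated against vehicle hearts already known. Their values in that contrast are therefore a description. Counts of members past a threshold are given beside the share of all genes where that share was computed, with nothing drawn from them.

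The 3 treated mice had been given the aminoglycosides paromomycin and neomycin together, called Paro/Neo here, by intraperitoneal injection at 150 mg/kg 2 times a day. The 3 vehicle mice had received injections of PBS. Both groups were CD1 mice, an outbred stock, 3 months old, injected over 14 days, and none carried an engineered allele per the labels. Each library was made from the snap-frozen ventricles of 1 mouse.

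IGF1 and IGF2 are small secreted proteins related to insulin. IGF1 and IGF2 signal mainly through the receptor tyrosine kinase encoded by Igf1r, which activates PI3K and Akt, and Insr encodes the closely related insulin receptor. Igf2r encodes a receptor that carries IGF2 to the lysosome for degradation, and most secreted IGF is held by binding proteins that limit or deliver it. In the heart this signalling is known for its part in cardiomyocyte growth and survival.

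The values are in TPM, a transcript abundance scaled for length and to the same total in each library. Whole reads inferred from the TPM values put the depth at 12421206 to 15575723 reads in Paro/Neo libraries and 9556387 to 15969980 in vehicle libraries. Paro/Neo replicate 1 stood apart from the other 5 libraries across genes, with a mean Pearson correlation with the others of 0.975 against 0.981 to 0.985 for the rest. It lay at 36.3 on the first principal component, against -2.52 to 3.24 for the other Paro/Neo hearts and -16.3 to -7.79 for vehicle hearts. The members' differences are therefore given with and without that heart. Cardiomyocyte genes dominated each library, as the tissue label implies: Myl2, a ventricular myosin light chain, was at 51694 to 69835 TPM in Paro/Neo hearts and 55269 to 58925 TPM in vehicle hearts. Of 4 liver markers listed, the highest value was 1.22 TPM.

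Igf1 was the member whose groups stood apart. It was at 10.3, 9.98 and 10.7 TPM in Paro/Neo hearts, against 15.6, 14.6 and 14.9 TPM in vehicle hearts, with replicates 1 to 3 in order in each group. All treated hearts lay below all vehicle hearts, and the gap between the groups was several times the range within either. The mean was 10.3 ± 0.37 TPM in Paro/Neo and 15.02 ± 0.54 TPM in vehicle hearts (SD, n = 3 each), a ratio of 0.688 and a log2 difference of -0.50 ± 0.10 (SE, on log2(TPM + 1)). The difference was as large without Paro/Neo replicate 1, at -0.50 ± 0.10, and it ranged from -0.54 to -0.47 over the 14 other settings. The values rested on 651, 522 and 542 reads in Paro/Neo hearts and 1000, 781 and 571 reads in vehicle hearts. The coefficient of variation between mice was 3.54% in Paro/Neo and 3.62% in vehicle hearts, where counting error alone gives at most 4.20% and 3.67%, an upper limit because the inferred reads are lower estimates. The spread of Igf1 within each group was thus no larger than that limit. In whole ventricle, fewer cells of a type and less RNA per cell cannot be told apart.

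The gene lies on chromosome 10 at 87858265 to 87937042 on the plus strand (GRCm38, GENCODE M21). Its antisense neighbour Igf1os overlaps it and had no entry among the features listed.

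**Figure D1:**
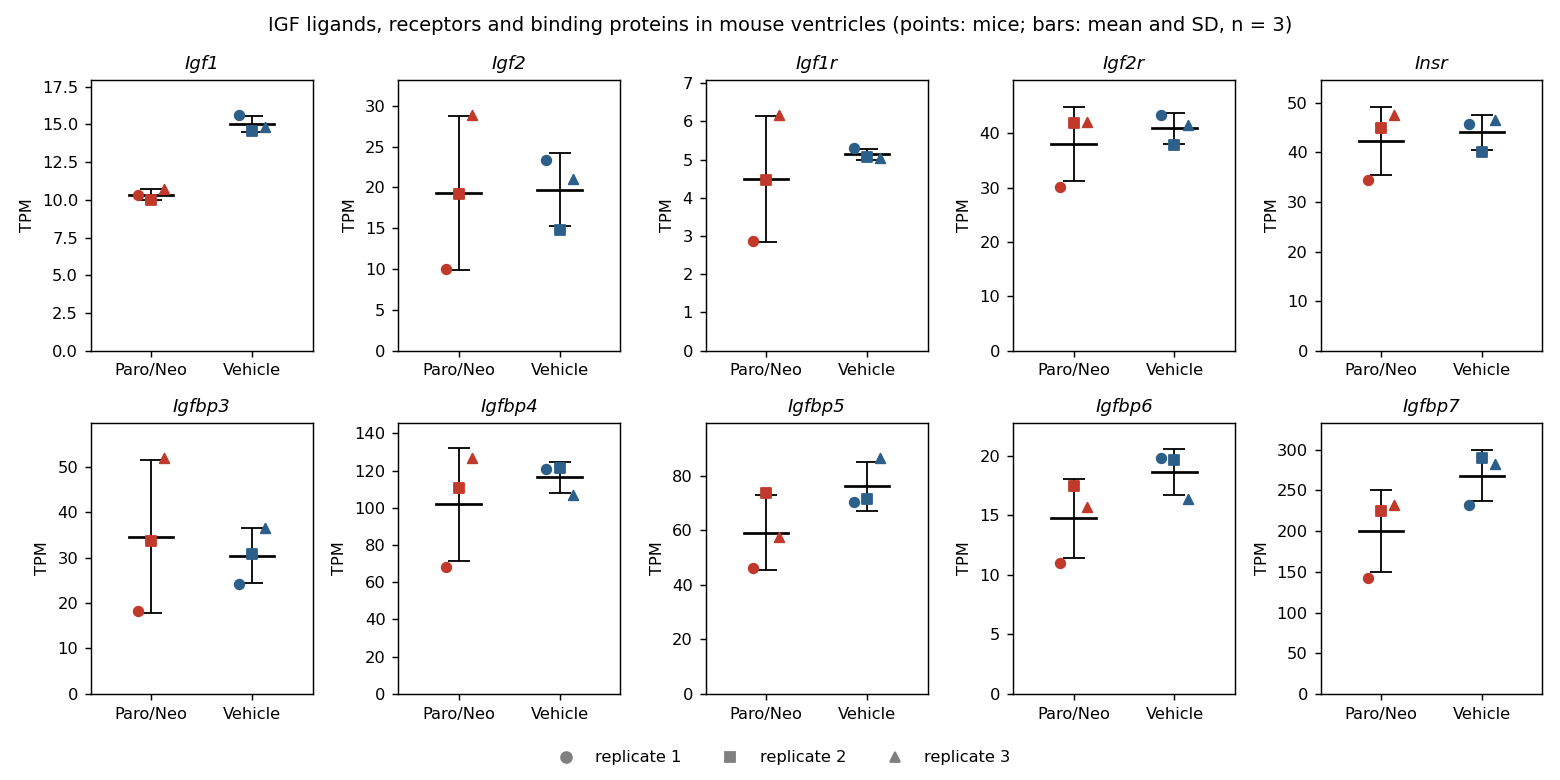
Abundance of the 10 genes in TPM (vertical axes, from 0) in each heart, with Paro/Neo at left and vehicle at right, symbols by replicate, and bars for the mean and SD of 3 mice. The groups do not overlap for Igf1, and Paro/Neo replicate 1 (circle) is the lowest heart for the other 9 genes.

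Across the set, 1 of 10 members had groups that did not overlap, with every treated heart below every vehicle heart, as did 8.22% of the 12409 tested genes. No member had every treated heart above every vehicle heart, as 6.04% of tested genes did. By limma with Benjamini-Hochberg adjustment over all tested genes, 0 of 10 members passed an adjusted p of 0.05, where 0.121% of tested genes passed as higher and 0.0161% as lower in Paro/Neo hearts. With limma's voom on the inferred reads, 0 passed as well. At an unadjusted p under 0.05 by limma, 2 members were lower, Igf1 and Igfbp7, and 0 were higher, beside 4.37% and 3.24% of tested genes. Nothing is read from these counts, since the choice of members used this contrast.

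The upstream sequences of the 3 members with the most negative log2 differences, Igf1, Igfbp7 and Igfbp5, are shown because these genes stand at the low end of the set. Each run is the 250 bases before the annotated start in the RefSeq table (GRCm38.p6), read 5′ to 3′ on the gene's strand. Capitals mark matches, on either strand, to TATAAA (the TATA box), CCAAT (the CCAAT box), GGGCGG (the GC box), TTCNNNGAA (bound by STAT factors) or TGTTTAC (bound by FoxO factors). The window of Igf1 is at chr10:87860861-87861110 on the plus strand. That of Igfbp7 is at chr5:77408046-77408295 and that of Igfbp5 at chr1:72874866-72875115, both on the minus strand. The Igf1 window lies inside the GENCODE span of the gene, which begins at 87858265, so it is upstream of the RefSeq start only. The Igfbp5 window overlaps the first bases of its GENCODE span, which starts at 72874884 on the minus strand.
Igf1: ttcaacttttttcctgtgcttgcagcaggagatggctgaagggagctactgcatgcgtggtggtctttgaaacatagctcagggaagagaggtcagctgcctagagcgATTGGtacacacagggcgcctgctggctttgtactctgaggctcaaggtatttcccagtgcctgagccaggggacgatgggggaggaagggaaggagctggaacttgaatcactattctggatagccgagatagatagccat
Igfbp7: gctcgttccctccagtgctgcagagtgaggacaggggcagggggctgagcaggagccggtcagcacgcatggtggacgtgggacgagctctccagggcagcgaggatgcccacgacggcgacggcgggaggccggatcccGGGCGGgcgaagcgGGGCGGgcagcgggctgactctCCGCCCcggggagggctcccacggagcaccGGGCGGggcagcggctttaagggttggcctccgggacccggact
Igfbp5: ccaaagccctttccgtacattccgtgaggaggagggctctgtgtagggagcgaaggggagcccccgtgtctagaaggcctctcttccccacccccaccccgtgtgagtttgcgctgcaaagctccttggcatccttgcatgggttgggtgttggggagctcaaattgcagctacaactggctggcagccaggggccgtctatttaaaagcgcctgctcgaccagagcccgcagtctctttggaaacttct

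The Igf1 window held 1 CCAAT box on the opposite strand, beginning 142 bases before the start, and had a GC content of 52.8%, beside a median of 52.4% over the 32851 windows in the table. The Igfbp7 window was richer in GC, at 74.0%, and held 4 GC boxes, beginning 110, 96, 74 and 44 bases before the start. The Igfbp5 window, at 58.8% GC, held none of the 5 motifs as spelled. Over all windows the share with a match was 12.4% for TATAAA, 33.8% for CCAAT, 32.7% for GGGCGG, 7.02% for TTCNNNGAA and 3.17% for TGTTTAC. The matches overlapped none of each other in these 3 windows. Of the 10 members, 9 had an entry in the table, and Igf2 had 4. Which start was used in these hearts was not measured.

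Igf2, the other ligand gene, did not separate the groups and had the widest span of the 10 genes from lowest to highest heart, just ahead of Igfbp3. It was at 10.01, 19.2 and 28.9 TPM in Paro/Neo hearts, against 23.4, 14.7 and 20.98 TPM in vehicle hearts. The lowest and the highest of the 6 hearts were both treated ones, replicates 1 and 3, a 2.88-fold span. The mean was 19.3 ± 9.43 TPM in Paro/Neo and 19.7 ± 4.47 TPM in vehicle hearts (SD, n = 3 each). Its log2 difference of -0.12 ± 0.34 (SE) was smaller than its error, and without Paro/Neo replicate 1 it was 0.27 ± 0.23. Counting error came to at most 4.48% in Paro/Neo and 4.42% in vehicle hearts, against a coefficient of variation between mice of 48.8% and 22.7%.

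Igf2 lies on chromosome 7 at 142650766 to 142666816, beside H19, a noncoding RNA at 142575529 to 142578143 (GRCm38, GENCODE M21). The pair is imprinted, Igf2 read from the paternal and H19 from the maternal copy, and both draw on shared enhancers. H19 was at 17.0, 41.99 and 64.7 TPM in Paro/Neo hearts, against 47.2, 23.2 and 30.6 TPM in vehicle hearts. The order of hearts was nearly that of Igf2. Paro/Neo replicate 1 and vehicle replicate 2 were the lowest for both, and vehicle replicate 1 and Paro/Neo replicate 3 the highest for both. Other members partly shared these extremes. Insr, on chromosome 8, also had Paro/Neo replicate 1 and vehicle replicate 2 lowest and Paro/Neo replicate 3 highest. For Igf1r, Igfbp3 and Igfbp4, Paro/Neo replicate 1 was lowest and Paro/Neo replicate 3 highest. The part of the shared enhancers was not tested. While H19 spanned 3.80-fold over the 6 hearts, the ratio of Igf2 to H19 spanned 1.54-fold, at 0.588, 0.456 and 0.446 in Paro/Neo hearts and 0.496, 0.635 and 0.686 in vehicle hearts. H19 did not pass the test between groups (log2 difference 0.16 ± 0.45 SE, adjusted p = 0.942 by limma), and its sign turned without Paro/Neo replicate 3, at -0.26, and without vehicle replicate 2, at -0.07. The antisense transcript Igf2os, which overlaps Igf2, had 1 to 4 reads per library.

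**Figure D2:**
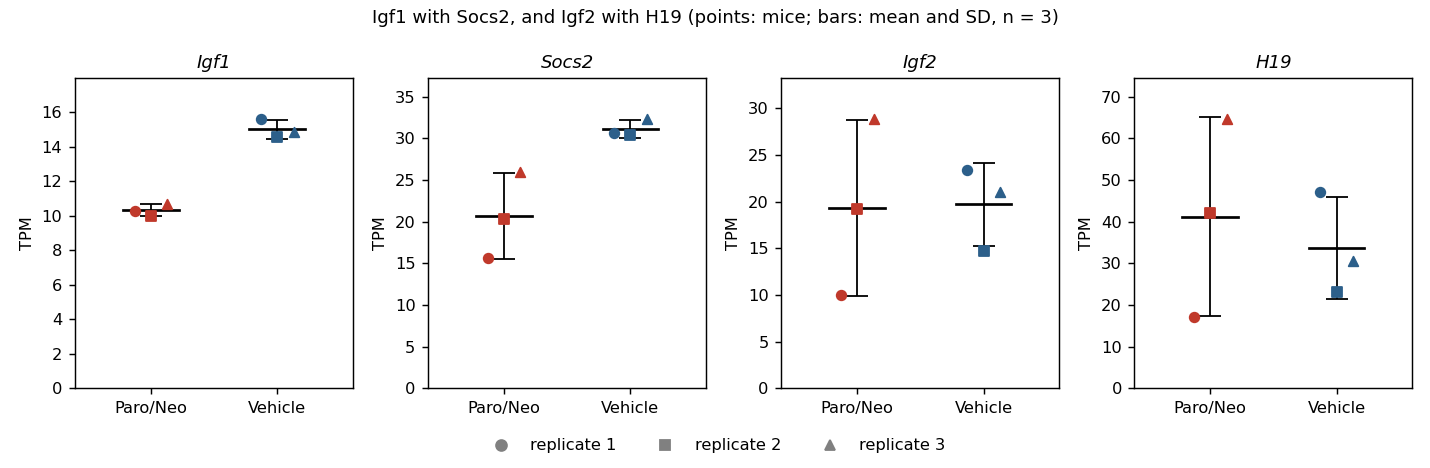
Abundance in TPM (vertical axes, from 0) of Igf1, Socs2, Igf2 and H19 in each heart, Paro/Neo at left and vehicle at right, with bars for the mean and SD of 3 mice. Igf1 and Socs2 are lower in every treated heart, whereas Igf2 and H19 overlap and rank the hearts in nearly the same order.

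Among the receptors, Insr and Igf2r were the abundant ones and Igf1r the least abundant of the 10 members. Igf1r was at 2.86, 4.47 and 6.16 TPM in Paro/Neo hearts, against 5.30, 5.07 and 5.04 TPM in vehicle hearts. The vehicle hearts lay close together, and the treated hearts lay on both sides of them. The log2 difference was -0.20 ± 0.21 (SE), and 0.03 ± 0.15 without Paro/Neo replicate 1. The coefficient of variation between mice was 36.7% in Paro/Neo and 2.79% in vehicle hearts, beside upper limits of 5.32% and 5.06% for the counting error.

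Insr was at 34.5, 44.9 and 47.5 TPM in Paro/Neo hearts, against 45.7, 39.99 and 46.4 TPM in vehicle hearts. Apart from Paro/Neo replicate 1 the hearts overlapped, and the log2 difference was -0.07 ± 0.14 (SE), or 0.07 ± 0.10 without that heart. Per length, Insr was 12.1, 10.1 and 7.71 times as abundant as Igf1r in Paro/Neo hearts, and 8.62, 7.89 and 9.20 times in vehicle hearts. The adult ventricle thus held more transcript for the insulin receptor than for the IGF1 receptor in each of the 6 hearts.

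Igf2r was at 30.1, 41.8 and 41.95 TPM in Paro/Neo hearts, against 43.3, 37.8 and 41.6 TPM in vehicle hearts, again with 1 low treated heart. The log2 difference was -0.12 ± 0.15 (SE), and 0.04 ± 0.09 without it. Its antisense partner Airn, a noncoding RNA that silences the paternal Igf2r copy in many mouse tissues, was named after its values were seen. It was at 9.10, 7.51 and 6.07 TPM in Paro/Neo hearts and 6.36, 5.73 and 7.81 TPM in vehicle hearts. Paro/Neo replicate 1 was the highest heart for Airn, as for 27.1% of tested genes, and the lowest for Igf2r, as for 32.8%. Vehicle replicate 2 was the lowest heart for Airn, and for Igf2r only Paro/Neo replicate 1 was lower. A relation between Airn and Igf2r was not tested. Airn did not pass between groups (adjusted p = 0.823 by limma). The 2 genes overlap on opposite strands, and the strand setting of the counting is not given in the sources used here, so reads in the overlap are uncertain.

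Binding protein genes made up most of the family's transcripts, and Igfbp7 led them. Igfbp7 encodes a secreted protein of the vessel wall that binds IGFs weakly. It was at 142, 225 and 233 TPM in Paro/Neo hearts, against 232, 290 and 282 TPM in vehicle hearts. Paro/Neo replicates 1 and 2 were below the lowest vehicle heart, replicate 1, and Paro/Neo replicate 3 was just above it. The mean was 199.9 ± 50.3 TPM in Paro/Neo and 268 ± 31.4 TPM in vehicle hearts (SD, n = 3 each), a log2 difference of -0.45 ± 0.19 (SE) and -0.22 ± 0.11 without Paro/Neo replicate 1. With median-of-ratios scaling or quantile normalization, every treated heart was below every vehicle heart for Igfbp7. Polr2b overlaps the gene on the other strand, so reads at that end are uncertain.

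Igfbp5, whose product binds the matrix as well as IGFs, was at 46.3, 73.5 and 57.5 TPM in Paro/Neo hearts, against 70.3, 71.5 and 86.4 TPM in vehicle hearts. Paro/Neo replicates 1 and 3 were below every vehicle heart and replicate 2 was among them. The log2 difference was -0.38 ± 0.17 (SE), and -0.22 ± 0.14 without Paro/Neo replicate 1. Igfbp6, whose product prefers IGF2, was at 11.03, 17.5 and 15.7 TPM in Paro/Neo hearts, against 19.8, 19.7 and 16.4 TPM in vehicle hearts. Here too replicates 1 and 3 of the treated group were below every vehicle heart. Its log2 difference was -0.34 ± 0.17 (SE), and -0.16 ± 0.12 without Paro/Neo replicate 1. Igfbp6 had the fewest reads of the set, 115 to 151 in Paro/Neo and 104 to 209 in vehicle hearts, so the upper limit of its counting error was 8.75% and 8.19%.

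For Igfbp4 and Igfbp3 the treated hearts lay on both sides of the vehicle hearts. Igfbp4, whose product inhibits IGF action until the protease PAPP-A cuts it, was at 68.3, 111 and 127 TPM in Paro/Neo hearts, against 121, 122 and 107 TPM in vehicle hearts. Its log2 difference was -0.24 ± 0.21 (SE), and 0.03 ± 0.10 without Paro/Neo replicate 1. Igfbp3, whose product is the main IGF carrier in blood, was at 18.2, 33.7 and 51.8 TPM in Paro/Neo hearts, against 24.3, 30.7 and 36.4 TPM in vehicle hearts. Treated hearts were both the lowest and the highest, a 2.85-fold span, and the difference was 0.08 ± 0.33 (SE) with all hearts and 0.46 ± 0.22 without Paro/Neo replicate 1.

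**Figure D3:**
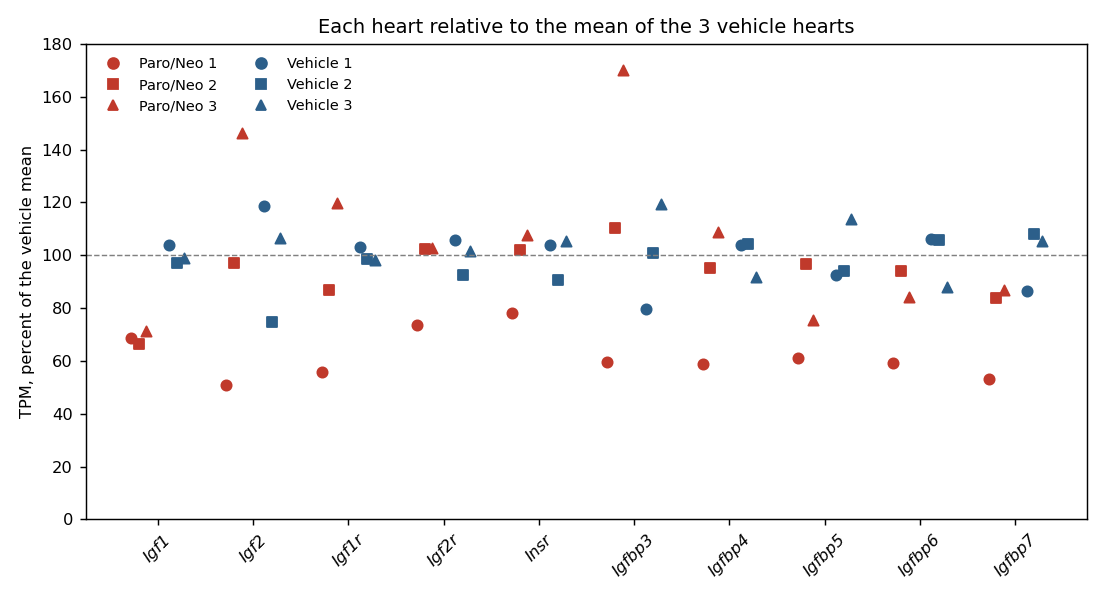
TPM of each heart as a percent of the mean of the 3 vehicle hearts (vertical axis) for the 10 genes (horizontal axis), Paro/Neo hearts in red at left and vehicle hearts in blue at right of each gene. The 3 treated hearts lie together at 66.4% to 71.3% for Igf1, and Paro/Neo replicate 1 lies at 50.8% to 78.2% for the other 9 genes, below all other hearts.

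The members' direction differed with and without the heart that stood apart. Paro/Neo replicate 1 was the lowest of the 6 hearts for 9 of 10 members, against 32.8% of tested genes. It held between 50.8% (Igf2) and 78.2% (Insr) of the vehicle mean for those 9. For the same 9 genes Paro/Neo replicate 2 held 83.9% to 111% and replicate 3 held 75.6% to 170%. With all hearts 9 of 10 members had a negative log2 difference, with a median of -0.22, beside 53.7% of tested genes and a median of -0.02. Without Paro/Neo replicate 1, 4 of 10 were negative, with a median of 0.03, beside 51.7% of tested genes and a median of -0.01. The members that kept a negative sign without it were Igf1, Igfbp5, Igfbp6 and Igfbp7. The coefficient of variation between mice was larger in the treated group for 9 of 10 members, Igf1 being the exception. The median coefficient of variation over all tested genes was also larger in the treated group, at 14.1% in Paro/Neo and 9.97% in vehicle hearts. For the 9 members it was 16.3% to 48.8% in Paro/Neo and 2.79% to 22.7% in vehicle hearts. The share of tested genes with a larger value in the treated group was not computed.

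**Figure D4:**
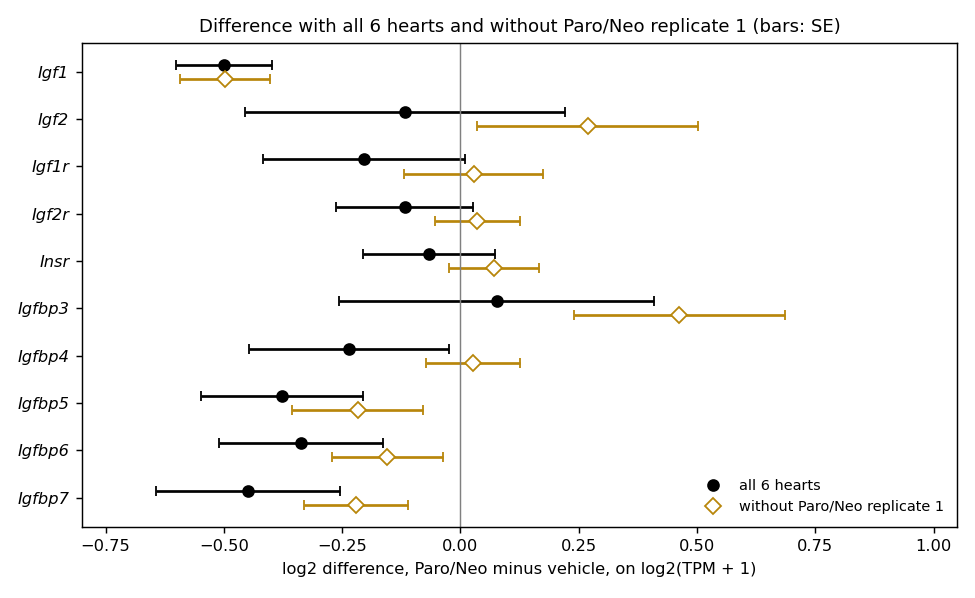
Log2 difference of Paro/Neo minus vehicle on log2(TPM + 1) (horizontal axis) for the 10 genes, with all 6 hearts (filled circles) and without Paro/Neo replicate 1 (open diamonds), and bars for the SE. The value of Igf1 is -0.50 in both, whereas Igf2, Igf1r, Igf2r, Insr and Igfbp4 change sign.

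Per length, the order of levels in vehicle hearts was Igfbp7, Igfbp4, Igfbp5, Insr, Igf2r, Igfbp3, Igf2, Igfbp6, Igf1 and Igf1r. The ranges of vehicle hearts overlapped between Insr and Igf2r and between Igf2 and Igfbp6, so these neighbours were not ordered beyond their spread, and every other neighbouring pair was separate. The 5 binding protein genes summed to 286, 460 and 484 TPM in Paro/Neo hearts, against 467, 533 and 528 TPM in vehicle hearts. The 2 ligand genes summed to 20.3, 29.1 and 39.6 TPM in Paro/Neo hearts, against 39.0, 29.3 and 35.8 TPM in vehicle hearts. The ratio of binding protein to ligand transcripts was 14.0 ± 1.78 in Paro/Neo and 14.97 ± 3.11 in vehicle hearts (SD, n = 3 each), a difference within the spread. The ratio of Igf1 to Igf2 was 1.03, 0.521 and 0.371 in Paro/Neo hearts and 0.667, 0.989 and 0.708 in vehicle hearts. It was high where Igf2 was low by construction, since Igf2 is its denominator and spanned 2.88-fold against 1.57-fold for Igf1.

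Markers of several cell types also lay lower or higher in treated hearts. Of 12 fibroblast markers, 12 had a negative log2 difference (median -0.35, and -0.27 with 10 negative without Paro/Neo replicate 1), 8 of them had every treated heart below every vehicle heart, as did 8.22% of all tested genes, and their summed level was 3021 to 3811 TPM in Paro/Neo and 3923 to 4076 TPM in vehicle hearts. The matrix gene Dcn and the actin-severing gene Gsn were the most abundant of them. Dcn was at 1726, 1844 and 1891 TPM in Paro/Neo hearts, against 1809, 1850 and 1867 TPM in vehicle hearts, and Gsn was at 529, 1028 and 990.1 TPM in Paro/Neo hearts, against 1066, 1121 and 981 TPM in vehicle hearts. Of 12 endothelial markers 10 were negative (median -0.25, and -0.13 with 9 negative without that heart), with sums of 3699 to 4410 TPM in Paro/Neo and 4457 to 4963 TPM in vehicle hearts. Of 10 pericyte and smooth muscle markers 8 were negative (median -0.20, and -0.07 with 7 negative without it), with sums of 545 to 784 TPM in Paro/Neo and 577 to 688 TPM in vehicle hearts. Of 11 macrophage markers listed, 10 were positive (median 0.20, and 0.29 with 9 positive without it), with sums of 709 to 738 TPM in Paro/Neo and 591 to 721 TPM in vehicle hearts. Of 12 cardiomyocyte markers 6 were negative (median -0.01, and 0.05 with 4 negative without it), at 170262 to 194415 TPM in Paro/Neo and 173509 to 180918 TPM in vehicle hearts. Every treated heart was below every vehicle heart for 4 endothelial, 1 pericyte and smooth muscle, 1 macrophage and 1 cardiomyocyte markers, and above for 2 macrophage and 1 cardiomyocyte markers, beside 8.22% and 6.04% of all tested genes. No marker in these 5 lists was at 0 in all libraries, and by limma 0 passed an adjusted p of 0.05. At an unadjusted p under 0.05 there were 7 fibroblast, 2 endothelial, 1 pericyte and smooth muscle, 2 macrophage and 1 cardiomyocyte markers, beside 944 of 12409 genes tested. Epicardial markers summed to 4.62 to 8.26 TPM in Paro/Neo and 10.2 to 12.6 TPM in vehicle hearts. Of the 7 listed, 5 averaged under 1 TPM. Both tested ones, Aldh1a2 and Wt1, had every treated heart below every vehicle heart, as did 8.22% of tested genes. Both were lower at an unadjusted p under 0.05 by limma, as were 4.37% of tested genes. Their median log2 difference was -0.63, and -0.60 without Paro/Neo replicate 1. Wt1 was low as well, at 1.10 to 2.59 TPM and 22 to 55 reads per heart. Lymphocyte markers summed to 4.17 to 6.20 TPM in Paro/Neo and 2.08 to 4.15 TPM in vehicle hearts. Of the 8 listed, 7 averaged under 1 TPM, so this sum lies near the floor. The 1 tested had a log2 difference of 0.01, and -0.03 without Paro/Neo replicate 1. The part of these cell types in the values of Igf1 and the binding protein genes was not tested.

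Other genes of the pathway were taken from 8 lists of 58 genes, of which 44 passed the filter and were tested. By limma with adjustment over all tested genes, 0 of 44 passed in either direction, and 0 passed with voom on the inferred reads. At an unadjusted p under 0.05, 2 were higher and 2 lower, near the shares of 3.24% and 4.37% among all tested genes. In all, 23 had a positive and 21 a negative log2 difference, with a median of 0.005, and without Paro/Neo replicate 1 there were 22 of each. The groups did not overlap for 6 of them, 4 above and 2 below vehicle hearts, near the shares of 6.04% and 8.22% among all tested genes.

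Socs2, a feedback inhibitor that growth hormone and STAT5 induce, had the largest difference of the 6 genes listed for the growth hormone axis, which induces Igf1 in liver and other tissues. It was at 15.6, 20.3 and 26.0 TPM in Paro/Neo hearts, against 30.7, 30.4 and 32.3 TPM in vehicle hearts. All treated hearts lay below all vehicle hearts, and the log2 difference was -0.60 ± 0.17 (SE, adjusted p = 0.428 by limma) and -0.42 ± 0.12 without Paro/Neo replicate 1. Cish, another STAT5 target, was at 14.0 ± 1.82 TPM in Paro/Neo and 17.9 ± 4.81 TPM in vehicle hearts (SD, n = 3 each, adjusted p = 0.748 by limma), with overlapping groups. The growth hormone receptor gene Ghr was at 211, 173 and 185 TPM in Paro/Neo hearts, against 181, 163 and 199 TPM in vehicle hearts, and was named after its values were seen. Of the 6 genes of this axis, 3 had a positive and 3 a negative difference, and 2 and 4 without Paro/Neo replicate 1.

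At the receptors, Grb10, an adaptor that restrains insulin and IGF1 receptor signalling, was at 31.1, 52.5 and 48.8 TPM in Paro/Neo hearts, against 59.7, 59.3 and 60.8 TPM in vehicle hearts. The vehicle hearts lay within a narrow range above all treated hearts, yet the gene did not pass (log2 difference -0.47 ± 0.18 SE, adjusted p = 0.592 by limma), and the difference was -0.24 ± 0.08 without Paro/Neo replicate 1. Grb2, which links receptors to Ras, was at 57.5 ± 5.82 TPM in Paro/Neo and 51.5 ± 1.21 TPM in vehicle hearts (SD, n = 3 each, adjusted p = 0.760 by limma). Of 8 tested adaptor and phosphatase genes 3 were positive and 5 negative, and 4 of each without that heart.

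In the PI3K, Akt and mTOR list 10 of 16 genes were positive and 6 negative, and 9 and 7 without Paro/Neo replicate 1. Pik3r1, the regulatory subunit p85 alpha of PI3K, was at 49.2, 53.98 and 48.6 TPM in Paro/Neo hearts, against 35.98, 40.3 and 48.2 TPM in vehicle hearts, with a narrow gap between the groups (log2 difference 0.29 ± 0.13 SE, adjusted p = 0.651 by limma). Akt2, the Akt isoform tied to insulin action, was at 63.6, 46.8 and 45.9 TPM in Paro/Neo hearts, against 39.3, 43.7 and 43.6 TPM in vehicle hearts (log2 difference 0.29 ± 0.14 SE, adjusted p = 0.694 by limma). Without Paro/Neo replicate 1, where Akt2 was highest, its difference was 0.14 ± 0.09.

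Of 8 FoxO genes and targets, which Akt restrains, 5 were positive and 3 negative, and without Paro/Neo replicate 1 the tally turned to 3 positive and 5 negative (median 0.05 with all hearts and -0.02 without it). Foxo3, encoding a FoxO transcription factor, was at 5.90, 6.83 and 6.73 TPM in Paro/Neo hearts, against 4.69, 3.69 and 4.79 TPM in vehicle hearts. Sesn1, a stress-induced gene that FoxO factors can activate, was at 164, 143 and 134 TPM in Paro/Neo hearts, against 117, 92.9 and 116 TPM in vehicle hearts. For both genes all treated hearts lay above all vehicle hearts, with log2 differences of 0.48 ± 0.13 and 0.43 ± 0.13 (SE), and neither passed (adjusted p = 0.422 and 0.454 by limma). Without Paro/Neo replicate 1 the differences were 0.54 ± 0.14 and 0.35 ± 0.12.

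**Figure D5:**
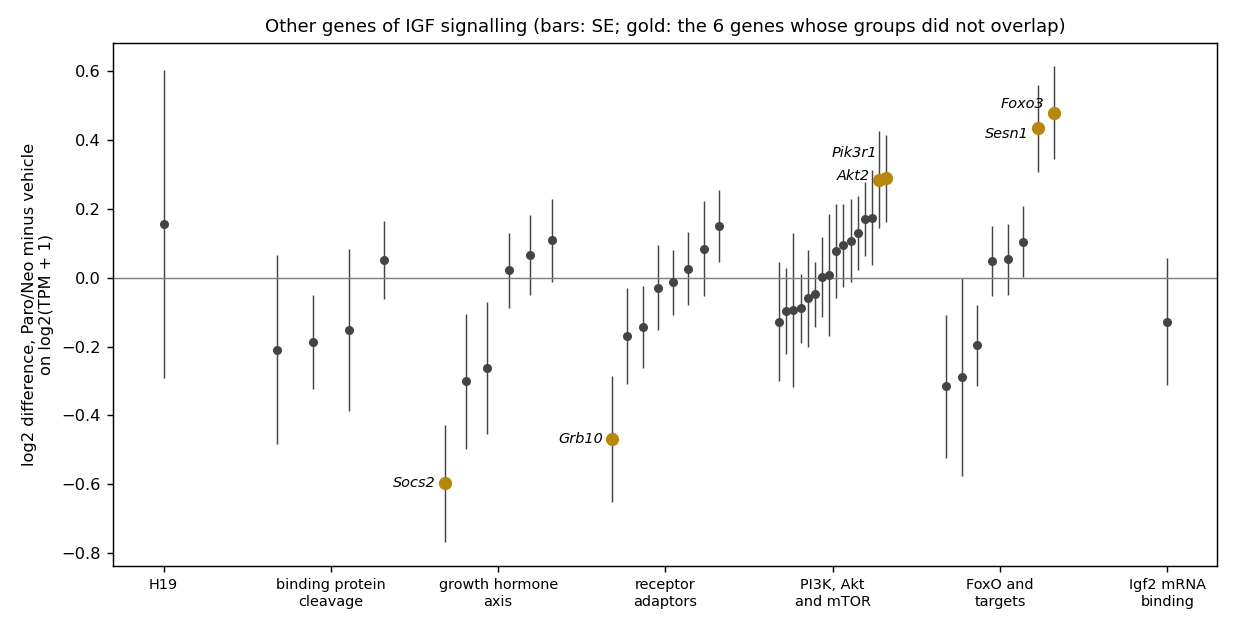
Log2 difference of Paro/Neo minus vehicle on log2(TPM + 1) (vertical axis) for the 44 tested pathway genes outside the 10 members, grouped by list, with bars for the SE. Gold marks the 6 genes whose groups did not overlap: Socs2 and Grb10 below 0, Pik3r1, Akt2, Sesn1 and Foxo3 above it.

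Of genes that cleave binding proteins or control that cleavage, Htra1 was at 53.1 ± 8.99 TPM in Paro/Neo and 59.9 ± 2.46 TPM in vehicle hearts, and Htra3 at 44.9 ± 16.7 TPM in Paro/Neo and 49.96 ± 8.72 TPM in vehicle hearts (SD, n = 3 each), neither past the threshold (adjusted p = 0.765 and 0.854 by limma). The sign of Htra3 turned without Paro/Neo replicate 1, at 0.12. Pappa is the gene of the protease PAPP-A that cuts the Igfbp4 product. It had 12, 24 and 16 reads in Paro/Neo and 29, 17 and 13 reads in vehicle libraries. At 0.13 to 0.33 TPM over all hearts, Pappa was below 1 TPM, so the filter left it out. Igf2bp2, whose product binds Igf2 mRNA, was at 1.90 ± 0.05 TPM in Paro/Neo and 2.22 ± 0.77 TPM in vehicle hearts (SD, n = 3 each, adjusted p = 0.866 by limma). A further 8 listed genes were below the filter, among them Igfbp2 with 0 to 1 read, Igfals with 0 to 7 reads and Irs2 with 7 to 25 reads per library, and at this depth a difference in them was not detectable. Ins1, Ins2, Igfbp1, Igf1os and Igf2bp1 had no entry among the 18158 features, so they could not be read.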

How the data were processed

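Ventricle RNA from 6 mice, 3 treated and 3 vehicle, was sequenced as stranded mRNA libraries at 76 bp. The deposited table gives TPM per feature, computed by the authors, per length and to a common total in each library. The submitters' processing notes name STAR 2.5.3a, featureCounts, Subread, FastQC 0.11.5, edgeR and the build mm10, without their roles. Neither annotation nor strand setting is given in the sources used here. Groups and replicate numbers came from the sample titles, and columns were matched to samples by the sample descriptions, which number the Paro/Neo hearts 2 to 4 where the titles have 1 to 3.

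Values were transformed to log2(TPM + 1), which understates changes of low genes, and limma 3.58.1 (R 4.3.3, trended eBayes) was fitted to 12409 genes that reached 1 TPM in 3 or more libraries, two-sided, with Benjamini-Hochberg adjustment over all of them at 0.05. All 10 members passed the filter. SEs of log2 differences are moderated. The limma fit was tested on simulated data. No exact permutation test was used, as 3 against 3 mice cannot reach 0.05.

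TPM keeps no depth, but between 2 libraries a feature's TPM ratio is a ratio of whole reads times a factor shared by all features. That factor was taken from low features, and 17574 of 17574 features above 0 then came out whole within 0.001 of a read. On simulated data most features, but not all, were read back exactly. These reads are lower estimates, since a factor common to all 6 libraries cannot be seen, so counting errors from them are upper limits, and they cover counting only.

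The members and gene lists were chosen with earlier results of these data known. Named pathway genes are the 2 of smallest unadjusted p per list and any past the threshold, and named markers the 2 most abundant of a list. The lists of epicardial, lymphocyte and liver markers had 2, 1 and 0 tested genes and 0 calls. Alternatives were a pseudocount of 0.1 TPM, no filter, a 5 TPM filter, median-of-ratios scaling, quantile normalization, array weights, a replicate term, leaving out each library and, chosen after the data were seen, voom on the inferred reads.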

Additional observations from a re-analysis of the deposited data

How the results depend on the processing

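With 3 mice per group and a heart that stands apart, the members' values other than that of Igf1 are loosely fixed. Over 14 other settings the 140 recomputed log2 differences of the members each moved by less than the SD between mice. That says little, because leaving out 1 of 3 hearts cannot move a difference by more than that SD. The filters and the replicate block also leave the difference itself unchanged. The sign held in every setting for 4 of 10 members, Igf1, Igfbp5, Igfbp6 and Igfbp7. The members' median of -0.22 became 0.03 without Paro/Neo replicate 1. By limma 0 members and 0 other pathway genes passed in each setting, voom on inferred reads included. Genes called higher over all tested genes numbered 15, against 5 without a filter, 4 to 23 when a library was left out, and 25 with the replicate block. Genes called lower numbered 2, against 1 without a filter, with the 5 TPM filter or with quantile normalization, 4 with array weights, and 0 to 4 when a library was left out. The groups of Igf1 did not overlap in any setting. Those of Igfbp7 also did not with median-of-ratios scaling or quantile normalization. Leaving out Paro/Neo replicate 2 added Igfbp5 and Igfbp6, and leaving out Paro/Neo replicate 3 added Igfbp7 and Igf1r. Without vehicle replicate 1 Igfbp7 was added, and without vehicle replicate 3 Igfbp6. Smaller groups separate more readily, and the share of all tested genes was not computed for these settings. Nothing is read from these additions. Among named pathway genes the sign turned for H19 (-0.26 without Paro/Neo replicate 3, -0.07 without vehicle replicate 2), Htra3 (0.000932 with array weights, 0.12 without Paro/Neo replicate 1) and Igf2bp2 (0.060 without vehicle replicate 2). When a library was left out, H19 ranged from -0.26 to 0.68, Htra3 from -0.45 to 0.12 and Igf2bp2 from -0.22 to 0.060. The causes were not tested.

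Replicate numbers gave no sign of pairing the samples. Deviations of same-numbered hearts from their group means correlated across genes at -0.05, -0.04 and -0.12, and no heart correlated best with its own number. With so few hearts this check cannot exclude that same-numbered hearts were handled together. By the descriptions' numbers, which make 2 pairs, the correlations were -0.05 and 0.01. The replicate block changed no call of a member or pathway gene. Depth limits the genes with few reads, Igfbp6 most among the members.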
